A study of Homo sapiens with 18 samples.

Results

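Cytosolic ribosomal proteins were taken as the protein-coding genes whose symbol begins with RPL (large subunit) or RPS (small subunit), without the RPS6K kinases and without genes on chromosome Y, and with a mean count of at least 50 over the 18 libraries. Of 60662 genes in the count table, 86 met this rule, 52 for the large and 34 for the small subunit. The symbol search returned 100 genes, of which 10 were RPS6K kinases, 2 lay on chromosome Y and 2 fell under the count limit. Just outside the limit were RPL10L, with a mean count of 0.17, and RPL3L, with 1.61, and just inside it were RPL39L with 53.0, RPL36A with 163 and RPL7 with 171. Of the 86 genes, 76 are core ribosomal proteins, 45 of the large and 31 of the small subunit. A further 6 are paralogs of core genes (RPL7L1, RPL22L1, RPL26L1, RPL36AL, RPL39L and RPS27L), and 3 are readthrough genes that join a ribosomal protein gene to its neighbour (RPL17-C18orf32, RPL36A-HNRNPH2 and RPS10-NUDT3). The last, RPS19BP1, is a binding partner of RPS19 and not a ribosomal protein. The members were chosen by their mean count, a measured value, and the culture and time comparisons below did not enter the rule.

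Each cytosolic ribosome joins a large subunit, which forms peptide bonds, to a small subunit, which reads the messenger RNA. Most ribosomal protein messenger RNAs begin with a terminal oligopyrimidine tract, a C followed by a run of C and T bases, through which the kinase mTOR and the binding protein LARP1 govern their translation and stability. In epithelial cells ribosome supply is known to follow growth factor and nutrient signals.

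MCF10A cells, an established non-malignant line of human breast epithelium, were grown in all groups in the same medium with horse serum, EGF, insulin, cholera toxin and hydrocortisone on soft polyacrylamide gels coated with Matrigel, a basement membrane extract. In 3D culture the medium added after attachment held 2% Matrigel, which set around the cells, and in 2D culture it held none. Cells were harvested at 3 timepoints, which by their order are 3, 12 and 21 h after plating, giving 6 groups with 3 poly-A RNA libraries each (3D and 2D at each timepoint). The labels do not say whether the libraries of a group came from separate cultures, so p-values measure the spread between these libraries. The replicate 1 library of 2D timepoint 3 was left out of the tests, as its labels list the count table alone, which leaves 2 libraries in that group. All values are from bulk RNA, in which fewer cells of a type and less RNA per cell cannot be told apart.

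The summed gene counts were 49.8 to 93.9 M per library, and in the 17 libraries with a total in the file headers they were 4.73 to 5.73 times that total, so they were not read as depth. All 11 epithelial markers listed for this line, not all of them particular to basal cells, were detected in all 18 libraries. They ran from EPCAM at 7.04 to 49.8 CPM (counts scaled to a common library size) to KRT5 at 2724 to 7380 CPM, both before TMM scaling. Markers of other cells were mixed. COL3A1 and CD3E were at 0 in all 18 libraries and COL1A2 and PTPRC in 16 of them, whereas DCN of the fibroblast list had 97.7 to 308 CPM and CD68 of the leukocyte list 5.03 to 20.8 CPM. Of the luminal breast list PGR was at 0 in all 18 libraries, while KRT8 had 233 to 794 CPM, KRT18 215 to 517 CPM and GATA3 6.0 to 13.9 CPM. Both timepoint 1 libraries of replicate 3 stood apart from the other timepoint 1 libraries. In them ribosomal protein genes held 14.8% of counts in 3D and 14.4% in 2D, against 7.04% to 8.42% in the other 3D libraries and 7.31% to 8.89% in the other 2D libraries of that timepoint. Mitochondrially encoded genes held 0.541% of counts in the 3D and 0.658% in the 2D replicate 3 library, against 0.976% to 1.21% and 1.17% to 1.25% in the other 3D and 2D libraries. For the members, the main counts called and medians that rest on these libraries are given with and without them. Results over time for single genes and for other gene lists are given with them only.

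Ribosomal protein genes took a larger share of the summed gene counts in 3D than in 2D culture at timepoint 2. They held 14.8%, 20.3% and 20.0% of all gene counts in the 3D libraries, against 9.87%, 12.2% and 12.3% in the 2D libraries, and the groups did not overlap. At timepoint 3 the shares were 14.2%, 16.6% and 15.3% in 3D, against 12.9% and 12.8% in the 2D libraries tested and 11.0% in the one left out, again without overlap. At timepoint 1 the shares were 8.42%, 7.04% and 14.8% in 3D and 8.89%, 7.31% and 14.4% in 2D, and both groups covered nearly the same range. The mean share in 3D was 1.60 times that in 2D at timepoint 2, 1.20 times at timepoint 3 and 0.99 times at timepoint 1. Taken over the library totals in the file headers in place of the summed counts, the ratios were 1.77, 1.22 and 1.00. In 3D replicates 2 and 3 of timepoint 2 the members' counts alone were 1.17 and 1.14 times the header total. Neither measure is therefore a share of reads or of RNA. The mitochondrially encoded share moved the other way at timepoint 2, with 0.364% to 0.482% in 3D against 0.908% to 1.18% in 2D. At timepoint 3 it was also lower, with 0.398% to 0.533% in 3D, against 0.589% and 0.684% in the 2D libraries tested and 0.783% in the one left out. Its part in the result was not tested.

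**Figure D1:**
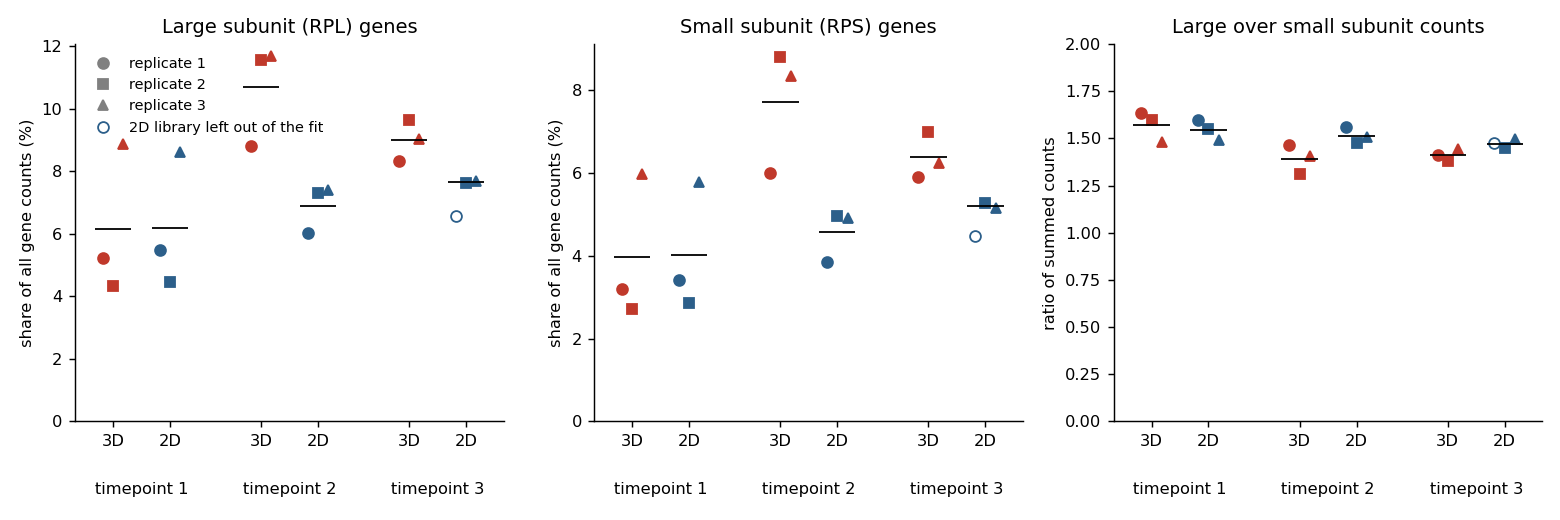
Share of all gene counts held by the 52 large subunit genes (left, %) and the 34 small subunit genes (middle, %), and the ratio of large to small subunit counts (right), in each library of 3D and 2D culture at 3 timepoints. Symbols are replicates, lines are means of the libraries tested, and the open circle is the 2D library left out; both subunits were higher in all 3D than in all 2D libraries at timepoint 2, and both timepoint 1 libraries of replicate 3 lie above the others of that timepoint.

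Gene by gene, the culture difference at timepoint 2 was broad and of similar size in most genes. Of the 86 genes, 84 had a higher fitted level in 3D, and the median log2 fold change was 0.98, against -0.03 over all 18592 genes tested. The quartiles of the members were 0.85 and 1.10, and the 52 large subunit genes had a median of 0.97 and the 34 small subunit genes one of 1.02. All 3 libraries of 3D culture lay above all 3 of 2D culture for 78 of the 86 genes, 46 of the large and 32 of the small subunit, which was so for 14.8% of all genes tested. Pairing the libraries by replicate number, 86, 83 and 84 of the 86 genes were higher in the 3D library of replicates 1, 2 and 3, with median differences of 0.88, 1.04 and 1.05 (log2). The 2 genes with a negative fitted change were RPL36A-HNRNPH2 at -0.18 and RPL7L1 at -0.16.

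How many of these differences passed the test depended on the test, the filter and the libraries used. In edgeR's quasi-likelihood test without a replicate block, 1 of the 86 genes, RPL22L1, was higher in 3D at a Benjamini-Hochberg adjusted p under 0.05, where 1.49% of all genes tested were called in either direction and 0.705% as higher. Of the 86, 76 had an unadjusted p under 0.05 in that test, a count given here without its share over all genes. With the replicate number as a block, 66 of the 86 rose, 41 of the large and 25 of the small subunit, where 9% of all genes were called higher and 15.9% in either direction. The block's call list holds the stalk proteins RPLP0 and RPLP2, the 5S RNA partners RPL5 and RPL11, RPS6 and RPS3. Of the 20 genes not called, RPLP1, RPSA, RPS3A, RPS26 and RPS29 had adjusted p of 0.0506 to 0.0548 in that test. Without the block DESeq2 called 28 of the 86, edgeR's test with no filter on low counts 73 and with all 18 libraries 0, where 4.06%, 2.5% and 0.237% of all genes were called higher. With the timepoint 1 replicate 3 libraries of both cultures left out, 75 genes were called higher without the block and 80 with it, where 5.2% and 12.4% of all genes were. Without the 3D replicate 3 library of timepoint 1 alone 31 were called higher, where 2.64% of all genes were, without its 2D counterpart 6, without replicate 2 of timepoint 1 in 3D 3 and in 2D 4. The count was 0 without any single 2D library of timepoint 2 and without replicate 1 or 3 of 3D at timepoint 2. Apart from the 2.64%, shares of all genes called with 1 library left out are not given here. These counts therefore cannot be told from a move of the whole call list.

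**Figure D2:**
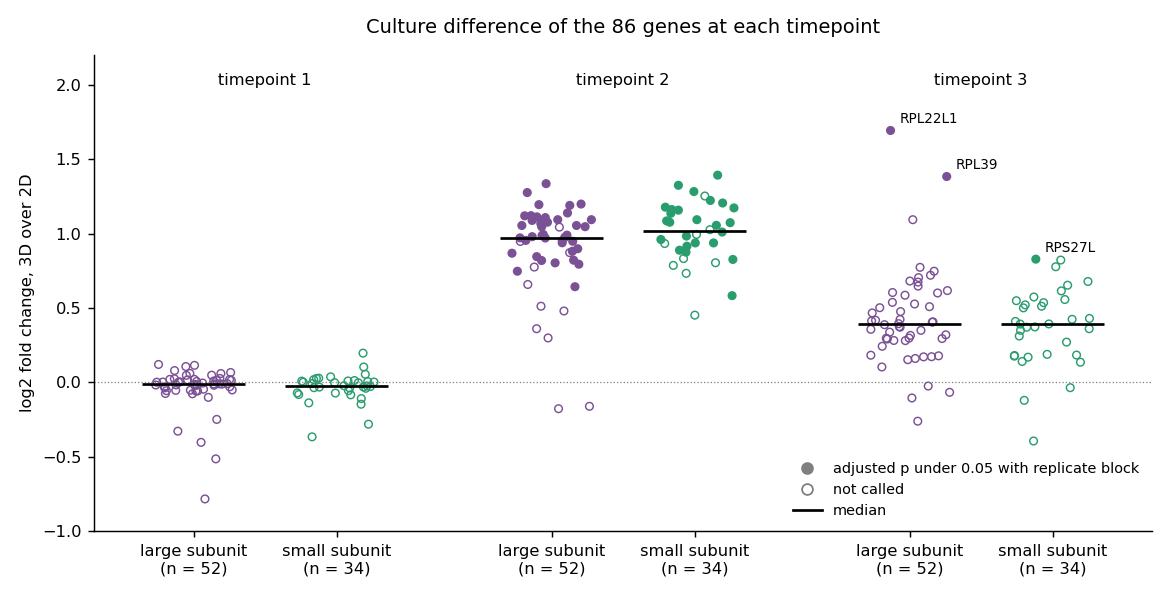
Fitted log2 fold change, 3D over 2D culture, of each of the 52 large and 34 small subunit genes at timepoints 1, 2 and 3; filled points passed an adjusted p of 0.05 with the replicate block, open points did not, and black lines are medians. Both subunits centre near 0 at timepoint 1, near 1 at timepoint 2 (medians 0.97 and 1.02) and near 0.39 at timepoint 3, when RPL22L1, RPL39 and RPS27L are the 3 genes called.

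Among core large subunit proteins the highest changes at timepoint 2 were those of RPL27, RPL23 and RPL26. RPL27 had 2895, 4371 and 4418 CPM in 3D, against 1299, 1761 and 1769 CPM in 2D. Its log2 fold change was 1.27 ± 0.36 (SE), with an adjusted p of 0.0787 in edgeR's quasi-likelihood test and 0.0131 with the replicate block. RPL23, which like RPL5 and RPL11 can bind MDM2, stood at 1.20, and RPL26, near the end of the peptide exit tunnel, at 1.19, with adjusted p of 0.0212 and 0.0146 in edgeR's test with the block. The groups did not overlap for any of the 3 genes.

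The P stalk, which recruits translation factors to the ribosome, was among the genes with changes near the median. RPLP0, the base of the stalk, had 9573, 11517 and 13628 CPM in 3D, against 5114, 6922 and 6822 CPM in 2D. RPLP2 had 1974, 3135 and 3217 CPM in 3D, against 1080, 1519 and 1435 CPM in 2D, and RPLP1 had 1798, 3332 and 2676 CPM in 3D, against 994, 1518 and 1276 CPM in 2D. The 3D libraries were the higher ones without overlap in each case. The log2 fold changes were 0.88, 1.05 and 1.04 for RPLP0, RPLP2 and RPLP1, with adjusted p of 0.0363, 0.0314 and 0.0506 in edgeR's test with the block.

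RPL5 and RPL11, which bind 5S ribosomal RNA and, when ribosome assembly fails, the p53 regulator MDM2, had changes below the median. RPL5 had 1934, 1718 and 2159 CPM in 3D, against 1051, 958 and 1224 CPM in 2D. The log2 fold change was 0.85 ± 0.30 (SE) for RPL5 and 0.82 ± 0.33 for RPL11, with adjusted p of 0.0105 and 0.0378 in edgeR's quasi-likelihood test with the block. RPL3, which lies near the peptidyl transferase centre, stood at 0.75, RPL10, which completes the late large subunit, at 0.90 and RPL13A at 0.95. All 5 had non-overlapping groups at timepoint 2. Lowest among the core large subunit genes were RPL36A at 0.30, RPL7 at 0.36, RPL22 at 0.48 and RPL39 at 0.51, none of which passed either test. Sequence shared with other genes, given below, makes the counts of many members uncertain, among those with the highest changes too.

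In the small subunit the highest changes at timepoint 2 were those of RPS15A, RPS20, RPS12 and RPS29. RPS15A had 2847, 4654 and 4717 CPM in 3D, against 1216, 1721 and 1720 CPM in 2D. Its log2 fold change of 1.39 ± 0.40 (SE) was the highest of the 86 genes, with an adjusted p of 0.0788 in edgeR's test and 0.0135 with the block. RPS20 stood at 1.32, RPS12 at 1.28 and RPS29 at 1.25, with adjusted p of 0.0141, 0.0283 and 0.0548 in edgeR's test with the block. The lowest were RPS10-NUDT3 at 0.45, RPS19BP1 at 0.58 and RPS26 at 0.73.

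Small subunit proteins with known roles outside this ranking lay between these ends. RPS6, the substrate of the S6 kinases, had 2867, 3295 and 4100 CPM in 3D, against 1423, 1575 and 1879 CPM in 2D, a log2 fold change of 1.07 (adjusted p = 0.118 in edgeR's test, 0.0124 with the block). RPS3, at the messenger RNA entry site, stood at 1.22, RPS14 at 1.18 and RPS19, a gene mutated in Diamond-Blackfan anaemia, at 1.08. RPS27A, which is made as a fusion with ubiquitin, stood at 1.01, RPS4X at 0.89 and RPSA, which is also known as a laminin receptor, at 0.83. RPSA had 393, 541 and 484 CPM in 3D, against 219, 307 and 270 CPM in 2D, without overlap, and an adjusted p of 0.053 in edgeR's test with the block. Of these 7 genes RPSA alone missed the threshold with the block.

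**Figure D3:**
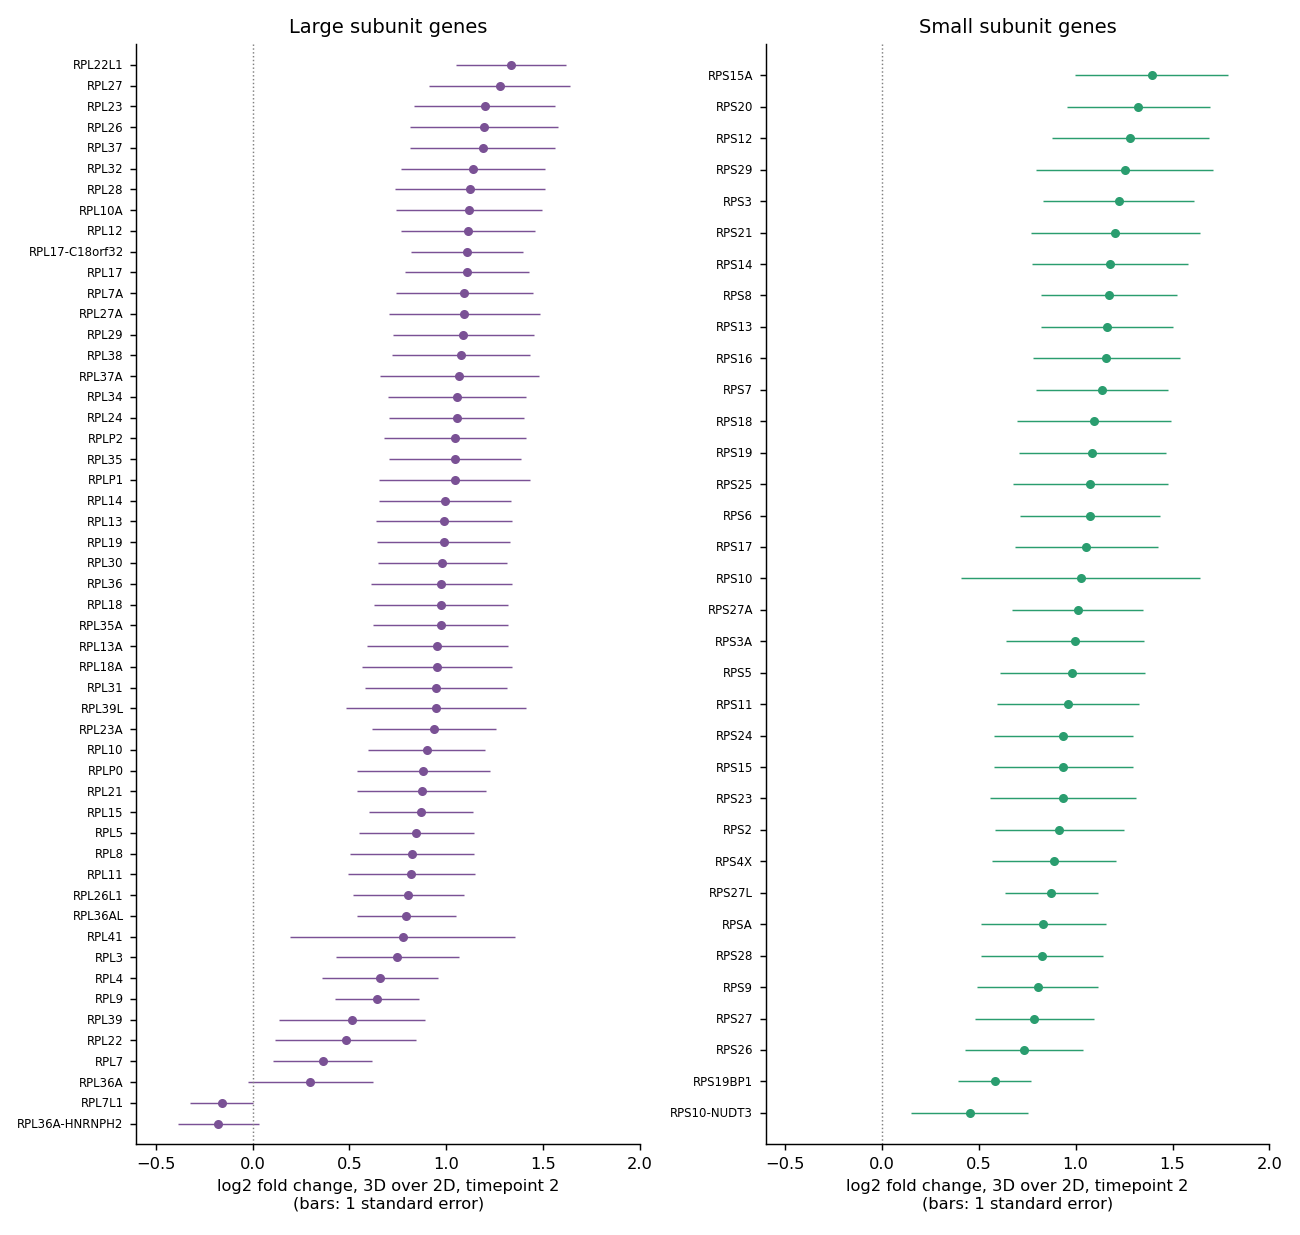
Fitted log2 fold change, 3D over 2D culture at timepoint 2, of each large subunit gene (left) and small subunit gene (right), ordered by value; bars are 1 standard error of the fit without the replicate block. Only RPL7L1 and RPL36A-HNRNPH2 lie below 0, and all 34 small subunit genes lie above it.

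In each pair of libraries with one replicate number at timepoint 2, large subunit genes stood slightly lower against small subunit genes in 3D than in 2D. The mean log2 CPM of large minus small subunit genes, each gene centred on its mean over the 17 libraries, was 0.01, -0.20 and -0.04 in 3D at timepoint 2, against 0.07, -0.03 and 0.05 in 2D. The groups overlapped, and the difference of their means, -0.10, stood beside a pooled SD within groups of 0.08. Within the pairs of one replicate number the difference, 3D minus 2D, was -0.06, -0.17 and -0.08, and between the medians of core genes -0.04, -0.07 and -0.08, lower in 3D in all 3 pairs. The difference of means was 0.0017 and 0.06 in the 2 pairs of timepoint 3, and -0.01, 0.02 and 0.0047 in the 3 pairs of timepoint 1. The ratio of summed counts, in which the genes with high counts weigh most, was 1.46, 1.31 and 1.40 in 3D and 1.56, 1.47 and 1.51 in 2D at that timepoint, with a narrow gap between the groups. At timepoint 3 it was 1.41, 1.38 and 1.44 in 3D, against 1.45 and 1.49 in the 2D libraries tested and 1.47 in the one left out.

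RPL22L1, the paralog that can take the place of RPL22 in the large subunit, was the 1 gene of the 86 that rose in 3D at both later timepoints in the test without the block. The gene lies on chromosome 3 at 170864875 to 170870195 (hg38, minus strand), and 3.28% of the 50-base words of its transcript occur in other genes. It had 204, 117 and 253 CPM in 3D at timepoint 1, against 197, 127 and 226 CPM in 2D, and the groups overlapped. At timepoint 2 it had 482, 416 and 497 CPM in 3D, against 204, 153 and 196 CPM in 2D. The lowest 3D library there was above 2 times the highest 2D library. The log2 fold change was 1.34 ± 0.29 (SE) with an adjusted p of 0.0343 in edgeR's quasi-likelihood test and 0.000545 with the block. Without the block the call was lost when any 2D library of timepoint 2, or replicate 1 or 3 of 3D at timepoint 2, was left out, with fold changes of 1.22 to 1.41 and adjusted p of 0.0981 to 0.144 in edgeR's test. With all 18 libraries it was 1.34 with an adjusted p of 0.0891 in that test.

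At timepoint 3 RPL22L1 had 579, 332 and 373 CPM in 3D, against 110 and 155 CPM in the 2D libraries tested and 388 CPM in the replicate 1 library left out. With the 2 libraries the groups did not overlap, and with the third they did. The log2 fold change was 1.69 ± 0.33 (SE), with an adjusted p of 0.0198 in edgeR's test and 0.00063 with the block, where 1.5% and 9.75% of all genes were called in either direction. With all 18 libraries it was 0.98 and its adjusted p in edgeR's test was 0.428. The call without the block was also lost without 2D replicate 2 (1.45, adjusted p = 0.347), 2D replicate 3 (1.96, adjusted p = 0.0567) or 3D replicate 1 of timepoint 3 (1.41, adjusted p = 0.0869) in that test. The authors' deposited table gives RPL22L1 as 1.30 at timepoint 2 (adjusted p = 0.0287) and 1.64 at timepoint 3 (adjusted p = 0.013). In the authors' deposited table RPL22L1 was likewise the 1 of the 86 genes under 0.05 at each of these timepoints, of 489 and 294 such genes among 13677.

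RPL22 itself, on chromosome 1 at 6185020 to 6199595, had 68.9, 130 and 90.1 CPM in 3D at timepoint 2, against 65.6, 81.7 and 60.1 CPM in 2D, with overlap. At timepoint 3 it had 95.7, 94.6 and 93.0 CPM in 3D, against 104 and 94.1 CPM in the 2D libraries tested. The log2 fold changes were 0.48 ± 0.37 (SE) and -0.07 ± 0.41, with adjusted p of 0.48 and 0.945 in edgeR's test, and the sign at timepoint 3 changed to 0.13 with the block. The difference between the paralogs was not tested.

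RPS27L, a paralog of RPS27 known as a p53 target gene, had 206, 168 and 189 CPM in 3D at timepoint 2, against 115, 90.6 and 102 CPM in 2D, without overlap (log2 fold change 0.88, adjusted p = 0.0694 in edgeR's test and 0.0031 with the block). At timepoint 3 it had 164, 118 and 138 CPM in 3D, against 74.9 and 82.8 CPM in the 2D libraries tested and 115 CPM in the one left out, with a log2 fold change of 0.83 (adjusted p = 0.136 in edgeR's test, 0.0224 with the block). RPS27 stood at 0.79 and -0.39 at timepoints 2 and 3, and neither value passed a test. Its level was low, with 8.08, 12.6 and 11.4 CPM in 3D at timepoint 2, against 6.02, 6.73 and 5.87 CPM in 2D. Of its 50-base words 66.5% occur in other genes, so its counts may not follow its messenger RNA. RPL39, a protein of the exit tunnel, had 35.9, 16.5 and 28.2 CPM in 3D at timepoint 3, against 6.35 and 14.2 CPM in the 2D libraries tested and 29.4 CPM in the one left out. Its log2 fold change was 1.38 (adjusted p = 0.128 in edgeR's test, 0.00342 with the block), and with that library the groups overlapped.

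RPL39L, the RPL39 copy known from testis, stayed between 0.286 and 1.59 CPM in all 18 libraries and passed no test. RPL26L1 had a log2 fold change of 0.80 at timepoint 2 and RPL36AL one of 0.79, and both rose in edgeR's test with the block (adjusted p = 0.0111 each). RPL7L1, known to act in ribosome assembly, had 55.7, 43.7 and 55.4 CPM in 3D at timepoint 2, against 54.8, 53.8 and 64.4 CPM in 2D, and overlapped. Its log2 fold changes were 0.12, -0.16 and 0.17 at timepoints 1, 2 and 3, none with an adjusted p under 0.05 in either test.

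**Figure D4:**
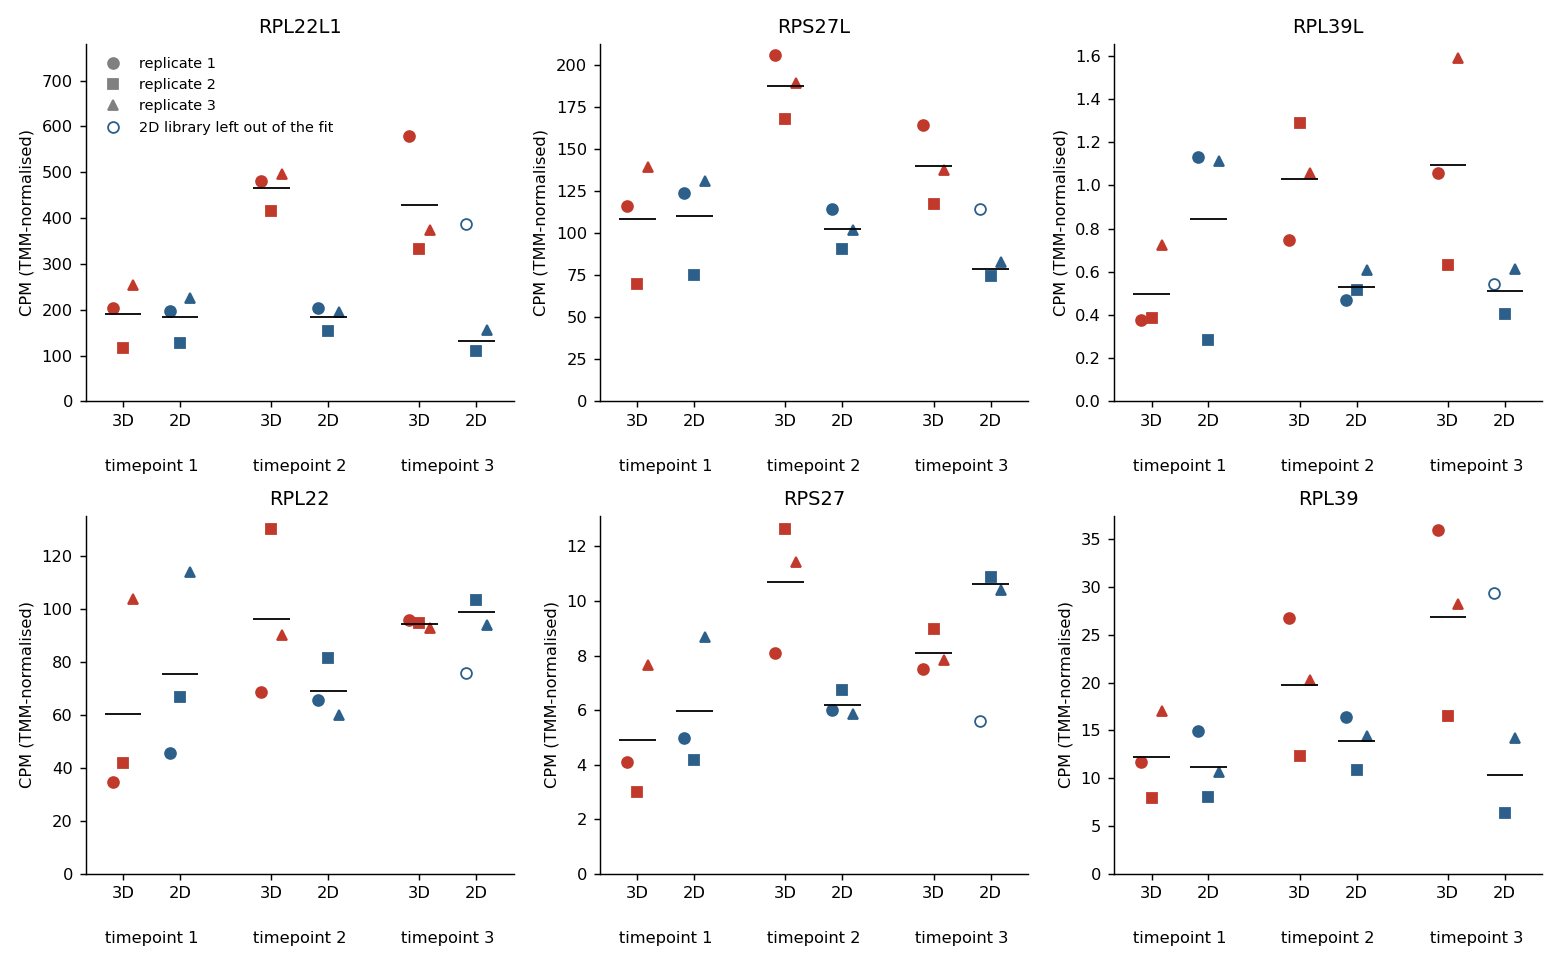
CPM of the paralogs RPL22L1, RPS27L and RPL39L (upper row) and of RPL22, RPS27 and RPL39 (lower row) in each library of 3D and 2D culture at 3 timepoints. Symbols are replicates, lines are means of the libraries tested and open circles are the 2D library left out; RPL22L1 separates the cultures at timepoint 2, and at timepoint 3 the open circle, at 388 CPM, falls inside the range of 3D culture.

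At timepoint 1 no member separated the cultures. Of the 86 genes 0 were called, with or without the block, where 0% of all genes were called and 244 of 18592 had an unadjusted p under 0.05; of the members 0 did. The median log2 fold change was -0.01, with 36 of 86 positive. With 1 replicate 3 library of timepoint 1 left out alone, that median was 0.46 (without the 2D one) or -0.55 (without the 3D one). It was -0.02 with the block. Within the pairs of one replicate number the median difference was -0.13, -0.04 and 0.05 for replicates 1, 2 and 3. At timepoint 3 the median was 0.39 over the 86 genes, with 0.39 in each subunit, 79 positive and 0.02 over all genes tested. Here 1 gene, RPL22L1, rose without the block, where 0.231% of all genes were called higher, and 3 with it (RPL22L1, RPL39 and RPS27L), where 4.45% were. Without the timepoint 1 replicate 3 libraries 20 rose with the block, where 8.47% of all genes did. With the block the median was 0.52. All 3D libraries lay above both 2D libraries tested for 59 of the 86 genes and below them for 2, which was so for 18.9% and 20.2% of all genes.

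Over time in 3D culture, the ribosomal protein genes were higher at timepoint 2 than at timepoint 1. In edgeR's quasi-likelihood test without the block 38 of the 86 rose, 20 of the large and 18 of the small subunit, where 7.31% of all genes were called higher. With the block 77 did, 45 and 32 by subunit, where 14.8% were called higher. In either direction the tests called 15.1% and 28.4% of all genes. The median log2 fold change was 1.05 without the block and 1.13 with it, against 0.01 over all genes in either. RPL22L1 had the smallest p of the large subunit genes (1.28 ± 0.29 SE, adjusted p = 0.00762 in edgeR's test) and RPS20 that of the small subunit genes, with 2757, 4451 and 4015 CPM at timepoint 2, against 1046, 802 and 2359 CPM at timepoint 1 (1.41 ± 0.37 SE, adjusted p = 0.0188). For the counts below, with 1 library left out, shares of all genes called are not given here. They therefore cannot be told from a move of the whole call list. The count hangs on the timepoint 1 libraries. It was 79, with a median of 1.60, without the 3D replicate 3 library, and 1 without replicate 1 or without replicate 2 of 3D at timepoint 1. It was 2 without replicate 3 and 5 without replicate 2 of 3D at timepoint 2, 69 without 2D replicate 3 of timepoint 1, and 20 to 25 without any one of 6 others, namely each 2D library of timepoint 2, either 2D library of timepoint 3 and 3D replicate 3 of timepoint 3.

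In 2D culture the same step showed 0 of 86 genes called in edgeR's test, with or without the block, where 5.87% and 13.7% of all genes were called in either direction. The median was 0.04, with no member at an unadjusted p under 0.05, and it was 0.52 without the 2D replicate 3 library of timepoint 1. The interaction of culture and time, which asks whether the step differed between cultures, had a median of 1.02 over the members and -0.03 over all genes. Without the block 34 members had an unadjusted p under 0.05 in edgeR's test, again given without the share over all genes. The interaction called 0 of 86 members there, where 0% of all genes were called, and DESeq2 called 0 members as well. With the block it called RPL22L1 alone (1.30, adjusted p = 0.0257), where 0.775% of all genes were called higher and 1.31% in either direction. The median interaction was 0.54 without the 2D and 1.56 without the 3D replicate 3 library of timepoint 1. With both left out and the block kept, 55 members were called, where 3.37% of all genes were called higher.

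From timepoint 2 to timepoint 3 no member passed the test. In 3D the median log2 fold change was -0.36, with 10 of 86 positive, and in 2D it was 0.25, with 75 of 86 positive, where 0% of all genes were called in each, and with the block 0 members were, where 0% and 0.0377% of all genes were. Among members with a lower level at timepoint 3 in 3D, RPL10 (-0.42) of the large and RPS27L (-0.42) of the small subunit had the smallest p, with adjusted p of 0.941 each in edgeR's test. The interaction for this step had a median of -0.60 and called 0 of 86 genes, where 0% of all genes were called, with 1 member, RPS27, at an unadjusted p under 0.05 (-1.18, adjusted p = 0.816 in edgeR's test). DESeq2 called 0 members in these 3 comparisons too.

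The annotated starts of the members carried what their messenger RNAs are known for. RefSeq promoter entries (GRCh38.p14) matched 68 of the 86 genes. The sequence was read in the direction of the messenger RNA. A C at the annotated start followed by at least 4 bases that are each C or T was present in 48 of these 68 genes (70.6%), 30 of 43 of the large and 18 of 25 of the small subunit. It was present in 749 of 10764 other protein-coding genes tested (7.0%) and in 5.0% of all other genes with an entry. When such a run could begin up to 5 bases to either side of the start, the shares were 82.4% of members and 25.1% of all other genes with an entry. Of the paralogs, 1 of 5 with an entry had such a start, RPL22L1. At timepoint 2 the 48 genes with such a start had a median log2 fold change of 1.03, against 0.88 in the 20 without, and the ranges overlapped. A match describes the annotated letters and not a working site.

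The starts of 3 pairs of core gene and paralog, of RPL39 and of RPL7L1 are shown, with RPS12 and RPS3 as core genes that rose with the block. Where a gene has several annotated starts, the one with the longest run is shown. Each window spans 15 bases before and 15 bases from the start, 5′ to 3′, and capitals mark the unbroken run of C and T from a C at the start.
RPL22L1: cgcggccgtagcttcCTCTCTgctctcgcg
RPL22: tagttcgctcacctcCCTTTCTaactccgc
RPL26: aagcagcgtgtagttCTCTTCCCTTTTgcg
RPL26L1: agtcttccaggggtcggcgaacgaaacgcg
RPS27: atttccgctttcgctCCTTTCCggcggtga
RPS27L: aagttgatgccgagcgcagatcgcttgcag
RPL39: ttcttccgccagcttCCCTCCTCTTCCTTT
RPL7L1: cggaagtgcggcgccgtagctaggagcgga
RPS12: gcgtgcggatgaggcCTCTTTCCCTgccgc
RPS3: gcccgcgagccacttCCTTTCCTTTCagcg
The windows lie, in GRCh38.p14, for RPL22L1 at chr3:170870181-170870210 on the minus strand, for RPL22 at chr1:6199581-6199610 on the minus strand, for RPL26 at chr17:8383179-8383208 on the minus strand, for RPL26L1 at chr5:172958714-172958743 on the plus strand, for RPS27 at chr1:153990747-153990776 on the plus strand. The others lie for RPS27L at chr15:63157463-63157492 on the minus strand, for RPL39 at chrX:119791616-119791645 on the minus strand, for RPL7L1 at chr6:42879601-42879630 on the plus strand, for RPS12 at chr6:132814554-132814583 on the plus strand, for RPS3 at chr11:75399503-75399532 on the plus strand. RPL22L1 and RPL22 both start in such a run, of 6 and 7 bases, while of the pairs RPL26 and RPL26L1, and RPS27 and RPS27L, the core gene has one and the paralog does not. RPL7L1, which was not higher in 3D at timepoint 2, has none, and neither has RPS27L, which rose with the block. Of members not shown, RPL27 (log2 fold change 1.27) and RPS29 (1.25), both high at timepoint 2, have none at the start. RPL36A (0.30) and RPL36A-HNRNPH2 (-0.18), both low at that timepoint, have a run of 10 bases.

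Genes outside the rule that belong to the same machinery were set beside the members. FAU and RACK1 encode ribosomal proteins under other names. RACK1, a scaffold on the small subunit, had 23335, 28825 and 31144 CPM in 3D at timepoint 2, against 13539, 17460 and 16704 CPM in 2D. FAU, made as a fusion with a ubiquitin-like protein, had 908, 1264 and 1161 CPM in 3D, against 519, 670 and 592 CPM in 2D. The groups did not overlap for either gene. Neither was called in edgeR's test without the block, and both rose with it, FAU by 0.90 (adjusted p = 0.0304) and RACK1 by 0.79 (adjusted p = 0.044) on the log2 scale. At timepoint 3 neither was called, with log2 fold changes of 0.19 for FAU and 0.24 for RACK1.

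Of 30 other messenger RNAs known for an oligopyrimidine start, mostly elongation and initiation factors, 25 were positive at timepoint 2, with a median of 0.47, and 0 were called without and 14 with the block, where 0.705% and 9% of all genes were called higher. LGALS1 (0.99) and VIM (0.72) had the smallest p, with adjusted p of 0.0599 and 0.0649 in edgeR's test and 0.021 and 0.00601 with the block. From timepoint 1 to 2 in 3D, 4 of the 30 rose without the block, VIM, LGALS1, TPT1 and NACA, where 7.31% of all genes were called higher. TPT1, a growth-related protein, had 10976, 12377 and 14938 CPM at timepoint 2, against 4873, 3179 and 8765 CPM at timepoint 1 (1.19, adjusted p = 0.0223 in edgeR's test). Of 13 snoRNA host transcripts, which begin in the same way, 11 were positive at timepoint 2 with a median of 0.57, and 0 were called without and 4 with the block, beside the same 0.705% and 9% of all genes. In 3D from timepoint 1 to 2, 4 of the 13 rose without the block, GAS5, SNHG5, ZFAS1 and SNHG29, beside 7.31% of all genes.

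Of 19 genes of mTOR signalling and oligopyrimidine regulation, 7 were positive at timepoint 2 with a median of -0.25, and 0 were called without the block. With it 4 were higher and 2 lower, where 9% and 6.86% of all genes were. EIF4EBP1, the translation repressor that mTOR inactivates, stood at 1.04 (adjusted p = 0.0632 in edgeR's test, 0.000913 with the block). SESN2, a stress-induced inhibitor of mTOR, had 3.13, 4.28 and 3.35 CPM in 3D at timepoint 3, against 11.2 and 11.5 CPM in the 2D libraries tested and 4.75 CPM in the one left out. It fell by 1.67 on the log2 scale (adjusted p = 0.000764 in edgeR's test), the 1 gene of the 19 called at that timepoint, where 1.26% of all genes were called lower, and the left-out library lay close to the 3D values.

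Of 44 ribosome biogenesis genes, which act mainly in the nucleolus, 30 were positive at timepoint 2 with a median of 0.09, and 0 were called without the block, with 5 higher and 1 lower with it, where 9% and 6.86% of all genes were. NOP10 (0.91) and NHP2 (0.74), both of box H/ACA particles, had the smallest p, with adjusted p of 0.0887 and 0.133 in edgeR's test. Of 10 chaperones and escorts of ribosomal proteins, 9 were positive with a median of 0.44, and 0 were called without and 4 with the block, where 9% of all genes were called higher. NACA (0.83) and PDCD2 (0.48) had the smallest p in that list, with adjusted p of 0.0955 and 0.131 in edgeR's test. Of 17 initiation and termination factors without the oligopyrimidine start, 15 were positive with a median of 0.20, and 0 were called with or without the block. EIF1 (0.44) and EIF4A1 (0.42) had the smallest p, with adjusted p of 0.246 and 0.332 in edgeR's test. Several of these lists share genes, namely NACA, BTF3, NAP1L1 and GRWD1, and were drawn up with earlier results of these data known.

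Other measures moved with culture at timepoint 2. MALAT1, a nuclear long noncoding RNA, had 96.1, 79.3 and 64.0 CPM in 3D, against 343, 147 and 215 CPM in 2D, and fell by 1.56 on the log2 scale (adjusted p = 0.0377 in edgeR's test, 0.00399 with the block). NEAT1, the scaffold of nuclear paraspeckles, stood at -1.41 (adjusted p = 0.0562 in edgeR's test, 0.00654 with the block). Of the 11 listed epithelial markers 0 were called at that timepoint without the block, with a median of -0.13, and 3 fell with it, CDH1, EPCAM and CDH3, where 6.86% of all genes were called lower. CDH1, the adhesion protein E-cadherin, had 28.05, 86.4 and 70.1 CPM in 3D, against 112, 148 and 146 CPM in 2D, and fell by 1.23 on the log2 scale with the block (adjusted p = 0.00274 in edgeR's test, 0.077 without the block). The summed counts were 5.54 to 5.73 times the header totals in 3D and 4.96 to 5.26 times in 2D. Their part in the ribosomal protein difference was not tested.

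Sequence shared between genes limits the counts of some members. Reads were 50 bases long, and between 0% and 99.0% of the 50-base words of a member's transcript occur in other genes, pseudogenes included. For each gene 1 annotated transcript was used, and some were long, with 2821 bases for RPL23 and 7686 for RPL37. Further sequence in a long transcript lowers its shared part. The groups by shared part and by length below therefore depend on the transcript used. Among genes with the highest changes at timepoint 2 the shared part was 56.7% for RPS15A, 60.8% for RPL26, 29.1% for RPS29, 28.2% for RPS20, 25.6% for RPS12, 4.18% for RPL23 and 2.99% for RPL27. It was 66.2% for RPL7, 66.5% for RPS27, 36.7% for RPL36A, 36.6% for RPL39, 16.1% for RPL22, 44.0% for RPL41 and 97.0% for RPL17, and the labels do not say how the authors counted such reads. At timepoint 2 the 24 members with under 10% shared words had a median log2 fold change of 1.06, the 35 with 10% to 50% one of 0.98 and the 27 with over 50% one of 0.94. Members with transcripts under 600 bases, 28 in number, had a median of 1.05, against 0.96 in the 58 longer ones, and with the block and an offset for length and GC content the median over the 86 was 0.81. The readthrough genes share exons with their neighbours, and reads of the joined genes cannot be told apart there.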

How the data were processed

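Gene counts and a log2 CPM table were deposited by the authors, with a table of log2 fold changes and adjusted p-values for 3D against 2D. Per the labels, reads were 50 bases long and poly-A libraries were made from 500 ng of RNA; the submitters' processing notes name STAR 2.7.1a, HOMER, edgeR, limma and the build hg38. How reads that match several genes were counted, and on which strand, is not stated in the labels or headers. The deposited comparison tables also hold score columns (moderated t and log odds of the authors' fit, per the file headers), not used here. The deposited p-values come from the authors' own test and are quoted as theirs only.

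The deposited counts were filtered with filterByExpr (18592 of 60662 genes kept, all 86 members among them), scaled by TMM and fitted over 17 libraries in 6 groups with edgeR's quasi-likelihood test (edgeR 4.0.16, limma 3.58.1, R 4.3.3), with p-values adjusted by Benjamini-Hochberg over all genes tested and a threshold of 0.05. The fit had no replicate block. Each replicate number carries 1 date in the library names, so the numbers pair libraries. In the 8 pairs of 3D and 2D libraries with the same number and timepoint the deviations from the group means correlated at 0.19 to 0.51. Between timepoints, libraries of the same number correlated at -0.04 to 0.37. The block gives each number 1 effect over all timepoints, so it describes some of these libraries poorly. Values with the number as a block are given where they change calls. DESeq2 1.42.0, limma-voom, other scalings and filters, all 18 libraries and leaving out each library were alternatives; leaving out both timepoint 1 replicate 3 libraries was added after seeing the data. On simulated counts for 3D against 2D at timepoint 2 (18134 genes), the test without the block recovered 36.2% of genes changed 2-fold and 89.7% of genes changed 4-fold. It recovered 0% of genes changed 1.5-fold. With the block the shares were 29%, 89.7% and 0%, and each fit made 4 false calls. The simulated libraries had no replicate effect and none that stood apart, so these shares do not carry over to the counts of members called.

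Members, gene lists and tests were chosen with earlier results of these data known. Named members were the 4 highest and 3 lowest changes at timepoint 2 in each subunit, listed proteins with known roles and paralog pairs, and for time the smallest p in each direction in each subunit; of other lists, the 2 smallest p and any called. Levels are CPM (counts per M counts) after TMM scaling. Some genes of the lists are not reported here.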

Additional observations from a re-analysis of the deposited data

Results flagged for a closer look

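The step from timepoint 1 to timepoint 2 in RPL22L1 differed between the cultures by 1.30 on the log2 scale (3D minus 2D) in edgeR's quasi-likelihood test with the replicate block, with an adjusted p of 0.0257. RPL22L1 was singled out because this test of the difference itself passed. Without the block the difference was 1.27 with an adjusted p of 0.525 in the same test.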

How the results depend on the processing

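Members called at timepoint 2 between 3D and 2D, 1 of 86 without the replicate block, numbered 28 with DESeq2, 73 with no filter, 0 with all 18 libraries, 66 with the replicate block, 62 with the block and a length and GC offset, 75 without the timepoint 1 replicate 3 libraries, 80 without them and with the block, and 0 to 31 when 1 library was left out. The shares of all genes called higher in the first 7 of these settings were 4.06%, 2.5%, 0.237%, 9%, 9.22%, 5.2% and 12.4%. At timepoint 3 the counts in this order were 2, 5, 0, 3 and 4, then 20 with the block and without those libraries, and 0 to 1 when 1 library was left out, beside 2.05%, 2.29%, 0%, 4.45%, 5.01% and 8.47% of all genes in the first 6. For timepoint 2 minus 1 in 3D, 38 became 25 with RLE scaling, 65 with limma-voom, 78 with no filter, 77 with the block, 75 with the block and offset, 79 without those libraries and 81 with the block as well, and 1 to 79 when 1 library was left out. The shares of all genes in the first 7 were 6.37%, 8.3%, 4.72%, 14.8%, 16.1%, 11.8% and 17.4%. The median was 1.59 and 1.54 without them and 0.79 to 1.60 when 1 was left out. In 2D the same step gave 1 call without those libraries and 2 with the block as well (2.21% and 6.76% of all genes), a median of 0.51, and -0.21 to 0.52 when 1 was left out, and timepoint 3 minus 2 gave 2 calls with no filter (0.125% of all genes). The interaction for timepoint 2 minus 1 called 28 with no filter (0.403% of all genes), 1 with the block with or without the offset (0.75% and 0.775%) and 55 with the block and without those libraries (3.37%), and its median was 0.54 to 1.56 when 1 library was left out. The timepoint 1 median was -0.55 to 0.46 when 1 was left out. The cause of these moves was not tested.

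At timepoint 3 the sign of some named genes turned. RPL36A was 0.20 with all 18 libraries, 0.0084 with the block and -0.35 to 0.39 when 1 library was left out. With all 18 libraries, the block, the block and offset, and the block without the timepoint 1 replicate 3 libraries, RPS10-NUDT3 was 0.074, 0.17, 0.096 and 0.11, RPL41 was 0.14, 0.26, 0.15 and 0.15, and RPL22 was 0.052, 0.13, 0.079 and 0.018. When 1 library was left out, RPS10-NUDT3 was -0.22 to 0.17, RPL41 -0.39 to 0.085, RPL7L1 -0.062 to 0.44 and RPLP1 -0.0776 to 0.30. RPS26 passed at 1.76 without 2D replicate 3 of timepoint 3 and not otherwise.

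RPL22L1 at timepoint 2 was 1.34 with all 18 libraries (no longer called) and 1.22 to 1.41 when 1 library was left out; at timepoint 3 it was 0.98 with all 18 libraries and 1.41 to 1.96 when 1 was left out. The members' median at timepoint 2 was 0.88 to 1.12 when 1 library was left out.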

Other observations

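Mitochondrial ribosomal proteins, which are encoded in the nucleus and serve the separate ribosome of the mitochondrion, also had higher levels in 3D at timepoint 2. Of 80 such genes tested, 79 were positive, their median being 0.54 (log2 fold change), and 1 rose in edgeR's quasi-likelihood test without the replicate block, MRPS18C (0.99 ± 0.20 SE, adjusted p = 0.0303), where 0.705% of all genes were called higher. With the block 45 rose, where 9% were called higher. At timepoint 3 the median was 0.41, with 0 called without and 23 with the block, where 0.231% and 4.45% of all genes were called higher, and at timepoint 1 it was 0.03 with 0 called. From timepoint 1 to 2 in 3D, 19 rose without and 47 with the block, where 7.31% and 14.8% of all genes were called higher, with a median of 0.49; MRPL34 (1.52, adjusted p = 0.000165) and MRPL17 (1.24, adjusted p = 0.00308) were among the 19 in edgeR's test without the block. This list was chosen with earlier results of these data known.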
